A study of Mus musculus with 8 samples.

Results

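The genes described here are the pituitary hormone genes *Gh*, *Prl* and *Pomc* and the receptor genes *Ghrhr*, *Ghsr*, *Trhr*, *Avpr1b*, *Sstr2*, *Sstr3* and *Sstr5*. They were chosen by gene symbol as the hormones of other pituitary lineages and the receptors through which the hypothalamus addresses those lineages. They are 10 of the 55523 entries of a gene count table from gonadotropes, the pituitary cells that make luteinizing and follicle-stimulating hormone. Each symbol had 1 entry, and no member shared its locus name with another gene.

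The cells were EGFP-positive pituitary cells, isolated by fluorescence-activated cell sorting, of Ad4BP-BAC-EGFP mice, in which a bacterial artificial chromosome carrying the *Nr5a1* (Ad4BP) locus drives EGFP. RNA-seq was made from 4 female and 4 male samples, and both groups carry the transgene. The age of these mice and the number of animals behind a sample were not given in the sources used here, so the p-values below measure only the spread between these samples, which may be technical. Male sample 1 was left out by the study, and it is shown apart here from males 2 to 4.

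The anterior pituitary holds several endocrine cell types, each named for its hormone. Somatotropes secrete growth hormone (*Gh*) under growth hormone-releasing hormone and ghrelin, lactotropes secrete prolactin (*Prl*), and corticotropes secrete adrenocorticotropin cut from the *Pomc* precursor, which melanotropes of the intermediate lobe also make. Their receptors couple to G proteins. The somatostatin receptors inhibit secretion, whereas the receptors for growth hormone-releasing hormone, ghrelin, thyrotropin-releasing hormone and vasopressin stimulate it. The question was whether the hormone and receptor transcripts of a lineage vary together from sample to sample.

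The libraries held between 18774578 and 31302588 counts. Levels are given as CPM, counts per 1e+06 counts of the library, after edgeR's TMM factors (trimmed mean of M values) had corrected the library sizes, and 3 counts, taken as the smallest level that can be read, correspond to between 0.0918 and 0.147 CPM. This floor and the intervals below cover counting error only. The gonadotrope markers *Lhb*, *Fshb*, *Cga*, *Gnrhr* and *Foxl2* were present in all 8 samples. *Nr5a1*, the gene whose locus drives the reporter, was between 590 and 1263 CPM in 7 samples but 16.4 CPM in male 1. *Malat1*, a nuclear RNA, took 11.1% of the counts of male 1 and between 0.706% and 1.59% of those of the other samples.

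For *Prl* and *Pomc*, the sequence upstream of the start is shown so that the pair can be compared letter by letter. Their levels spread 11.2-fold and 2.87-fold over the 8 samples. Over the 7 samples without male 1 they rose and fell together in part (Pearson's r of log2(CPM + 1) 0.66). The capitals mark TATNCAT, a core motif of the pituitary factor POU1F1, and TATAAA, the TATA box. Both strands were searched for these motifs and for TAATCC, a motif of the PITX factors. The windows are the 250 bases before the RefSeq start (build GRCm38.p6), at chr13:27057320-27057569 on the plus strand for *Prl* and chr12:3954695-3954944 on the plus strand for *Pomc*.
Prl: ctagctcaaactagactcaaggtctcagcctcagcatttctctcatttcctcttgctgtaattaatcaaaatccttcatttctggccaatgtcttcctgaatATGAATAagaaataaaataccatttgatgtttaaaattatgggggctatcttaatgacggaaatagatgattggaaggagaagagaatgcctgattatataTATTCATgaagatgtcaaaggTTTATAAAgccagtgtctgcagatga
Pomc: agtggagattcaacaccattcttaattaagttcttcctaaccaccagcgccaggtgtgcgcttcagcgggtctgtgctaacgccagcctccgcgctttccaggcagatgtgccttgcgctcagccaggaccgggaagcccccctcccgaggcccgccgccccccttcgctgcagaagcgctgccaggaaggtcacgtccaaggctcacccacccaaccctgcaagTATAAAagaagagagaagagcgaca
The *Prl* window holds TATNCAT at -47 on the plus strand and at -148 on the minus strand, positions being those of the leftmost base of the match counted back from the start. Its TATAAA matches lie at -24 on the plus strand and at -26 on the minus strand, and they overlap each other. The *Pomc* window holds TATAAA at -25 on the plus strand and no TATNCAT, and neither window holds TAATCC. Of 32851 promoter windows of the same length, 7.92% hold TATNCAT, 6.25% TAATCC and 12.4% TATAAA, and a match is a description of the letters only. Of the other members, *Ghsr*, *Sstr2* and *Sstr3* also had a RefSeq window, and none of these held any of the 3 motifs.

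*Gh*, *Prl* and *Pomc* transcripts were abundant in every sorted sample. *Gh* (chr11:106300271-106301865, minus strand, GRCm38) was 12410, 58207, 46740 and 51911 CPM in females 1 to 4, and 64444, 76548 and 143693 CPM in males 2 to 4. Male 1 was at 30284 CPM. Female 1 was the lowest and male 4 the highest sample, 11.6-fold apart, and males 2 to 4 all lay above the females. *Gh* took between 1.38% of all counts in female 1 (Wilson 95% interval 1.38% to 1.39%) and 12.6% in male 4 (interval 12.6% to 12.7%), and in 6 of the 8 samples it had more counts than any other entry. In bulk samples, fewer cells of a type and less RNA per cell cannot be told apart, and this holds for every level given here.

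The mean of *Gh* was 94895 ± 42691 CPM in males 2 to 4 (SD, n = 3) and 42317 ± 20482 CPM in females (SD, n = 4). Males exceeded females by a log2 fold change of 1.14 (SE 0.53), which did not pass the test (edgeR adjusted p = 0.289) and was 0.71 without male 4. A two-sided exact permutation test of log2(CPM + 1) over all 35 assignments of 3 and 4 samples gave p = 0.0571, where the smallest possible value is 0.0286. The groups overlapped when the library size was used without TMM factors. The 4 stem cell markers *Sox2*, *Sox9*, *S100b* and *Aldh1a2*, all above 0 in every sample, ran the other way in their summed level: it was between 305 and 535 CPM in females and between 217 and 269 CPM in males 2 to 4, with the highest sum in female 1 and the lowest in male 4. *Sox9* made up most of this sum (304 of 535 CPM in female 1) and was the 1 of 4 called by edgeR. *Aldh1a2* did not share the direction, since males 2 to 4, between 77.2 and 97.7 CPM, were above females 2 to 4, between 59.5 and 75.8 CPM, and below female 1. The part of these markers in the *Gh* values was not tested.

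*Prl* (chr13:27057570-27065205, plus strand) was 4677, 18234, 6918 and 6791 CPM in females 1 to 4, and 11452, 6179 and 15841 CPM in males 2 to 4. Male 1, at 1630 CPM, was the lowest of the 8 samples, and female 2 the highest, 11.2-fold above it. The groups overlapped, with means of 11157 ± 4838 CPM in males 2 to 4 (SD, n = 3) and 9155 ± 6140 CPM in females (SD, n = 4). Between the sexes, *Prl* gave a log2 fold change of 0.26 (SE 0.53, edgeR adjusted p = 0.849).

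*Pomc* (chr12:3954951-3960642, plus strand) varied least among the hormone genes. It was 19315, 22159, 12385 and 13098 CPM in females 1 to 4, and 16775, 10061 and 28871 CPM in males 2 to 4. Male 1 was at 18827 CPM, inside the range of the other males. The highest and the lowest of the 8 samples, males 4 and 3, differed 2.87-fold, and the sexes overlapped. The mean was 18569 ± 9532 CPM in males 2 to 4 (SD, n = 3) and 16739 ± 4769 CPM in females (SD, n = 4), a log2 fold change of 0.12 (SE 0.38, edgeR adjusted p = 0.905). In female 1, where *Gh* was lowest, *Pomc* had more counts than any other entry.

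**Figure D1:**
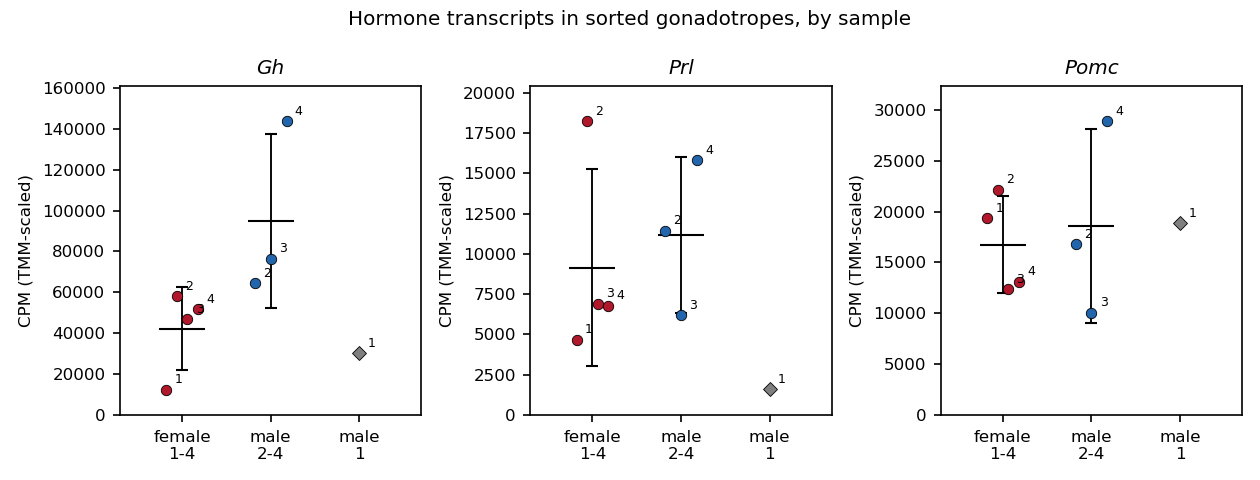
Level of *Gh*, *Prl* and *Pomc* in each sorted sample (CPM, TMM-scaled, axes from 0); points are samples with their numbers, horizontal lines the means and bars the SD, and grey diamonds male 1. Males 2 to 4 lie above all females for *Gh*, between 64444 and 143693 CPM, and the sexes overlap for *Prl* and *Pomc*.

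The receptors of releasing factors were far below the hormones, and their spread differed from gene to gene. *Ghrhr* (chr6:55376295-55388530, plus strand), the receptor of growth hormone-releasing hormone, was 2.95, 8.64, 25.6 and 7.23 CPM in females 1 to 4, and 8.82, 26.6 and 61.3 CPM in males 2 to 4. Male 1 was at 24.8 CPM. Female 1 was again the lowest sample and male 4 the highest, 20.7-fold apart, on counts between 69 and 1336. Female 3 stood close to male 3, so that the sexes overlapped. The mean was 32.2 ± 26.7 CPM in males 2 to 4 (SD, n = 3) and 11.1 ± 9.97 CPM in females (SD, n = 4), a log2 fold change of 1.52 (SE 0.83, edgeR adjusted p = 0.373), which was 0.65 without male 4 and 2.36 without female 3.

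*Ghsr* (chr3:27371351-27378010, plus strand), the ghrelin receptor, had 0, 8, 11 and 35 counts in females 1 to 4, and 40, 7 and 64 counts in males 2 to 4. Male 1 had 0 counts, for which the floor of 3 counts allows up to 0.132 CPM. Its highest level was 2.94 CPM in male 4, and the sexes overlapped. Its log2 fold change was 1.46 (SE 1.25, edgeR adjusted p = 0.598), an estimate that rests on these few counts and was 0.67 without male 4 and 2.68 without female 4.

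*Trhr* (chr15:44196135-44235912, plus strand), the receptor of thyrotropin-releasing hormone, is carried by lactotropes and thyrotropes. It was 0.514, 2.06, 1.71 and 0.520 CPM in females 1 to 4, and 5.25, 2.58 and 3.72 CPM in males 2 to 4, on counts between 12 and 135. Each of males 2 to 4 was above every female, whereas male 1, at 0.834 CPM, lay inside the female range. The mean was 3.85 ± 1.34 CPM in males 2 to 4 (SD, n = 3) and 1.20 ± 0.804 CPM in females (SD, n = 4). The log2 fold change was 1.65 (SE 0.59), with an edgeR p of 0.0256 and an adjusted p of 0.183.

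*Avpr1b* (chr1:131599239-131612000, plus strand), the pituitary vasopressin receptor of corticotropes, was the most even of the members. It was 3.64, 2.26, 2.60 and 3.77 CPM in females 1 to 4, and 3.15, 1.87 and 3.81 CPM in males 2 to 4, with 2.94 CPM in male 1. The 8 samples lay within 2.03-fold of each other, on counts between 46 and 87. Its log2 fold change was -0.08 (SE 0.34, edgeR adjusted p = 0.930), and the groups overlapped.

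Among the somatostatin receptors, *Sstr5* had a different pattern from *Sstr3*. *Sstr5* (chr17:25489875-25497288, minus strand) was 0.728, 4.37, 5.82 and 7.40 CPM in females 1 to 4, and 10.3, 14.2 and 24.8 CPM in males 2 to 4. Female 1 was lowest and male 4 highest, 34.0-fold apart, on counts between 17 and 540. Males 2 to 4 were all above the females, and male 1, at 3.69 CPM, lay inside the female range. The mean was 16.4 ± 7.48 CPM in males 2 to 4 (SD, n = 3) and 4.58 ± 2.85 CPM in females (SD, n = 4). The log2 fold change was 1.82 (SE 0.68), with an edgeR p of 0.0308 and an adjusted p of 0.201.

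*Sstr3* (chr15:78537008-78544685, minus strand) was 41.2, 34.3, 43.8 and 101.6 CPM in females 1 to 4, and 47.1, 50.9 and 39.3 CPM in males 2 to 4. Male 1 was at 56.7 CPM, above the other males. Female 4 stood apart from the rest, and the remaining 7 samples lay between 34.3 and 56.7 CPM. The log2 fold change was -0.30 (SE 0.39, edgeR adjusted p = 0.752).

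*Sstr2* (chr11:113619342-113626028, plus strand) was 2.27, 2.06, 2.39 and 2.81 CPM in females 1 to 4, and 2.49, 3.33 and 5.60 CPM in males 2 to 4. Male 1, at 1.97 CPM, was the lowest sample. Male 2 lay inside the female range, so that the groups overlapped, and the counts were between 42 and 122. For *Sstr2* the log2 fold change was 0.65 (SE 0.33, edgeR adjusted p = 0.334), and it was 0.27 without male 4.

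**Figure D2:**
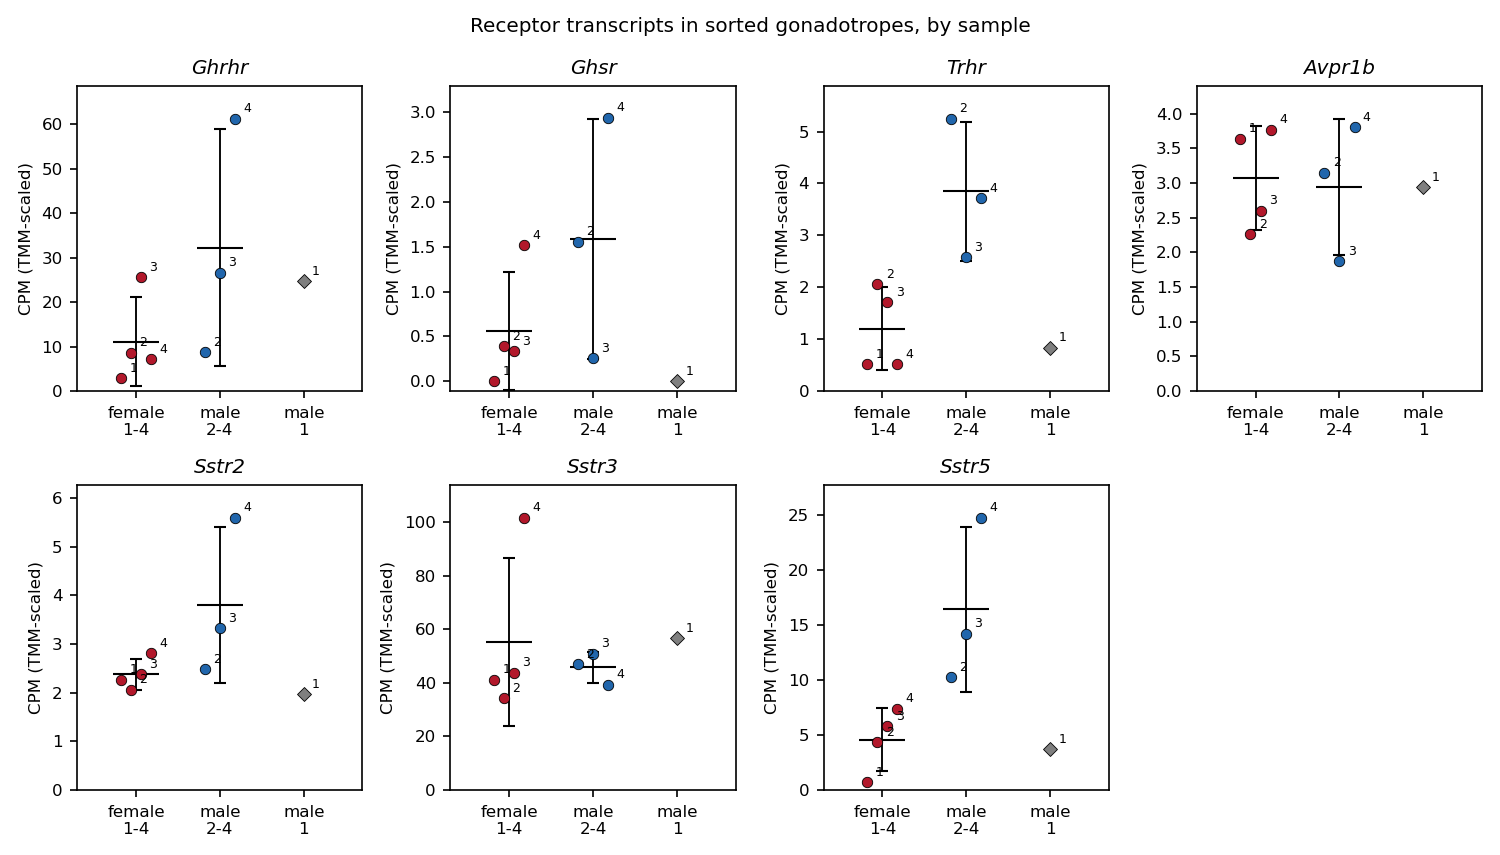
Level of the 7 receptor genes in each sorted sample (CPM, TMM-scaled), with points for samples, horizontal lines for means, bars for the SD and grey diamonds for male 1. Males 2 to 4 lie above all females for *Trhr* and *Sstr5*, male 4 is the highest sample for *Ghrhr*, *Ghsr*, *Avpr1b*, *Sstr2* and *Sstr5*, and female 4 stands apart for *Sstr3*.

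None of the 10 members passed the test between the sexes (0 of 10, edgeR adjusted p under 0.05), and 2 of 10, *Trhr* and *Sstr5*, had an unadjusted p under 0.05, a share close to the 19.9% of all genes tested. DESeq2 also called 0 of 10, against 11.6% of all genes, with 3 at an unadjusted p under 0.05, against 22.9%. Over all 20152 genes tested, 0.983% were called by edgeR with the males higher (198 genes) and 1.35% with the females higher (273 genes), a split that was 133 and 675 with library size alone. The samples of the sexes did not overlap, with the males higher, for 3 of 10 members (*Gh*, *Trhr* and *Sstr5*), against 11.6% of all genes, and for none with the females higher, against 10.9%. With library size alone the 3 became 2, without *Gh*, and male 1 lay inside the female range for all 3. The median log2 fold change was 0.89 over the members and -0.03 over all genes tested. With library size alone the median over all genes was -0.24 and that over the members 0.68, so that the members stood above all genes by a similar amount. Without male 4 the median over the members was 0.46 and that over all genes -0.05.

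**Figure D3:**
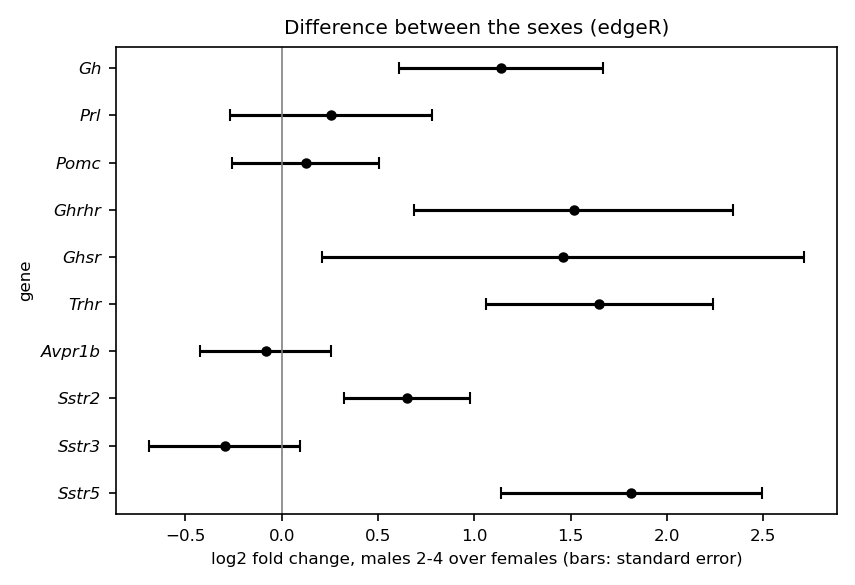
Log2 fold change of males 2 to 4 over females for the 10 members (edgeR), with bars for the standard error and a vertical line at 0. The values run from -0.30 for *Sstr3* to 1.82 for *Sstr5*, and none passed the test after adjustment over 20152 genes.

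The extreme samples were often the same. Of the 7 samples without male 1, male 4 was the highest for 7 of the 10 members and female 1 the lowest for 6. Over all 20152 genes tested, male 4 was the highest for 13.9% and female 1 the lowest for 17.8%, with ties left uncounted. Male 4 was not the highest for *Prl*, *Trhr* and *Sstr3*. Male 1 lay below males 2 to 4 for 6 members, inside their range for *Pomc*, *Ghrhr* and *Avpr1b*, and above it for *Sstr3*.

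Levels of different genes were compared as CPM per kilobase of exon, with the merged exons of the GENCODE annotation (862 bases for *Gh*, 4320 for *Sstr3*). The median level over the 8 samples on this scale was 63873 for *Gh*, 13506 for *Pomc* and 4868 for *Prl*. It was 10.5 for *Sstr3*, 4.82 for *Ghrhr* and 2.42 for *Sstr5*, and then 1.14 for *Sstr2*, 0.757 for *Avpr1b*, 0.472 for *Trhr* and 0.0823 for *Ghsr*. Neighbours in this order overlapped in their ranges over the samples, except *Prl* and *Sstr3*. The lowest *Prl* level per kilobase was 1158 and the highest *Sstr3* level 23.5. *Sstr3* was therefore the receptor with the highest median, and *Ghsr* the one with the lowest.

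Hormone and receptor transcripts were then compared across the 7 samples without male 1, for 8 pairs of genes read here as of the same lineage, with Pearson's r and Spearman's rho of log2(CPM + 1). The pair *Ghrhr* and *Ghsr* holds receptors alone, and the other pairs a hormone and a receptor. Which cells carried the somatostatin receptors in these samples was not tested. Each p is from a two-sided exact permutation test over all pairings and was adjusted over the 8 pairs. One pair passed, *Gh* and *Sstr5* (r = 0.96, exact p = 0.00198, adjusted p = 0.0159). Its rank correlation was 0.89 (exact p = 0.0123, adjusted p = 0.0984). Both genes were lowest in female 1 and highest in male 4, and males 2, 3 and 4 stood in the same order for both. With male 1 included, r was 0.96 (adjusted p = 0.00218). *Sstr5* had between 0.0587 and 0.186 counts per 1000 *Gh* counts over the 7 samples, a 3.17-fold range, narrower than the 11.6-fold range of *Gh* and the 34.0-fold range of *Sstr5* themselves.

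The relation was also computed within the sexes. On deviations from the mean of each sex, with pairings permuted within a sex, r of *Gh* and *Sstr5* was 0.95 (exact p = 0.0486, adjusted p = 0.292), where a single pair could not go below an adjusted p of 0.0556. Pearson's r was 0.75 without female 1 and male 4, the samples farthest from the *Gh* median (exact p = 0.142, adjusted p = 0.567), and there a single pair could not go below 0.0667. With 1 sample left out at a time, r stayed between 0.90 and 0.996. The pair no longer passed without female 1 (adjusted p = 0.10), male 2 (0.0556), male 3 (0.0722) or male 4 (0.111).

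*Gh* and *Ghrhr*, the hormone and the receptor that define the somatotrope axis, had r = 0.82 (exact p = 0.0212, adjusted p = 0.0849) and rho = 0.79 (exact p = 0.0480, adjusted p = 0.192). Without both female 1 and male 4, which narrows the range of *Gh* and leaves 5 samples, r was 0.15 and rho 0.40, so that the strength of the relation rests on these samples together. Leaving out female 1 or male 4 alone gave r = 0.72 and r = 0.70. Pearson's r was 0.72 on deviations from the mean of each sex and 0.70 with male 1, which held more *Ghrhr* for its *Gh* than any other sample. *Ghrhr* had 0.819 counts per 1000 *Gh* counts in male 1 and between 0.137 and 0.548 in the others, a 4.00-fold range over those 7.

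*Gh* and *Ghsr* had r = 0.72 (exact p = 0.0565, adjusted p = 0.151), which was -0.12 without female 1 and male 4. *Ghrhr* and *Ghsr* had r = 0.46 (exact p = 0.293, adjusted p = 0.335), and in *Ghsr* these values rest on at most 64 counts. *Gh* and *Sstr2* had r = 0.68 (exact p = 0.137, adjusted p = 0.219). For *Gh* and *Sstr3*, r was 0.0032 (exact p = 0.992, adjusted p = 0.992), and *Sstr3* counts per 1000 *Gh* counts ranged 12.1-fold, more than either gene alone.

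*Prl* and *Trhr* had r = 0.63 (exact p = 0.134, adjusted p = 0.219) and rho = 0.57. Without female 2 and male 4, the samples farthest from the *Prl* median, r was 0.80. On deviations from the mean of each sex r was 0.73 (exact p = 0.0764, adjusted p = 0.292). With male 1, lowest in *Prl*, r within the sexes was 0.88 (adjusted p = 0.0486), a setting chosen after seeing the data, under which *Gh* and *Sstr5* also passed (r = 0.96, adjusted p = 0.0486). *Trhr* had 0.512 counts per 1000 *Prl* counts in male 1, 0.458, 0.418 and 0.235 in males 2 to 4, and between 0.0765 and 0.248 in females, a 5.99-fold range without male 1.

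*Pomc* and *Avpr1b* had r = 0.49 (exact p = 0.261, adjusted p = 0.335) and rho = 0.54. Without males 3 and 4, the samples farthest from the *Pomc* median, r turned to -0.29. Both genes were highest in male 4 and lowest in male 3, and in the females, where *Pomc* was between 12385 and 22159 CPM, *Avpr1b* was lowest in female 2, the female with the most *Pomc*. *Avpr1b* had between 0.102 and 0.288 counts per 1000 *Pomc* counts, a 2.82-fold range.

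**Figure D4:**
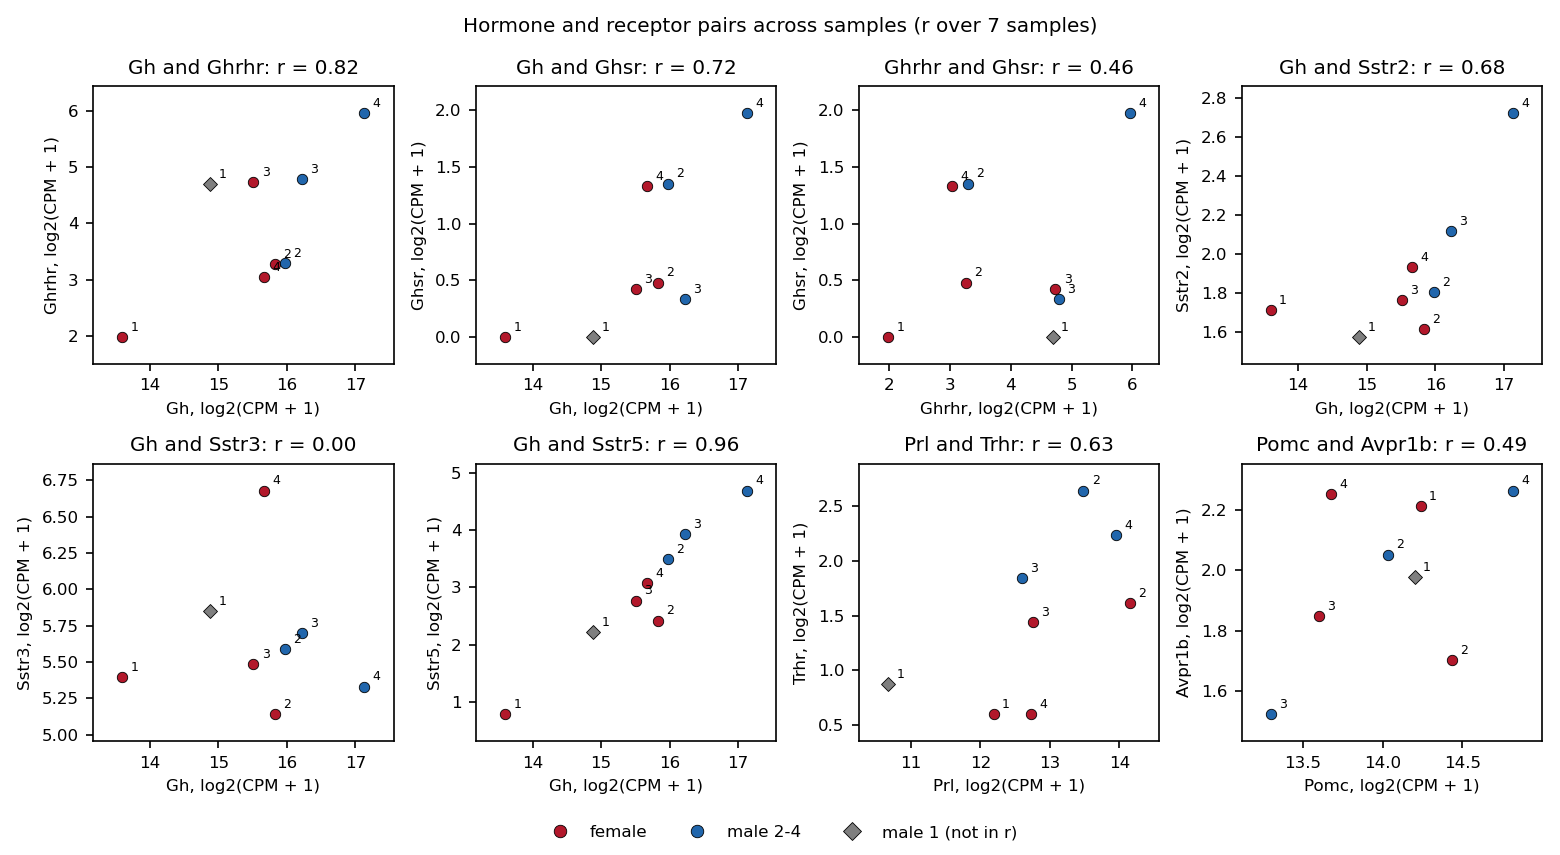
The 8 pairs of genes across samples, both axes as log2(CPM + 1). Circles are females and males 2 to 4, which enter the Pearson r above each panel, and grey diamonds are male 1. The points of *Gh* and *Sstr5* lie close to a line (r = 0.96), those of *Gh* and *Ghrhr* are more scattered (r = 0.82), and female 1 and male 4 are at the ends of both.

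As a description with no test, r was computed for all 45 pairs among the 10 members. The 8 lineage pairs had a median r of 0.66 and were all above 0, with *Gh* and *Sstr3* at 0.0032. The other 37 pairs had a median of 0.30 and a range of -0.53 to 0.83, with 28 above 0. These 37 pairs include receptor pairs of the somatotrope axis, such as *Ghrhr* and *Sstr5* (0.83), *Ghrhr* and *Sstr2* (0.77), *Sstr2* and *Sstr5* (0.77), *Ghsr* and *Sstr5* (0.73) and *Ghsr* and *Sstr2* (0.69), so that the medians do not compare pairs of the same lineage with pairs of different lineages. On deviations from the mean of each sex the medians were 0.55 and 0.26. All pairs share the same 7 samples, and *Gh* enters 5 of the 8 lineage pairs. Genes of different lineages also had high values: r was 0.71 for *Gh* and *Trhr* (0.41 within the sexes), 0.67 for *Gh* and *Prl* and 0.66 for *Prl* and *Pomc*, the last falling to 0.30 with male 1. *Gh* and *Pomc* had r = 0.13. Within the sexes *Trhr* had lower values with the somatostatin and ghrelin receptors: r changed from 0.70 to 0.20 with *Sstr5*, from 0.47 to 0.13 with *Ghsr* and from 0.38 to -0.34 with *Sstr2*. *Sstr3* ran against *Pomc* (r = -0.53), *Trhr* (r = -0.44) and *Prl* (r = -0.42).

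**Figure D5:**
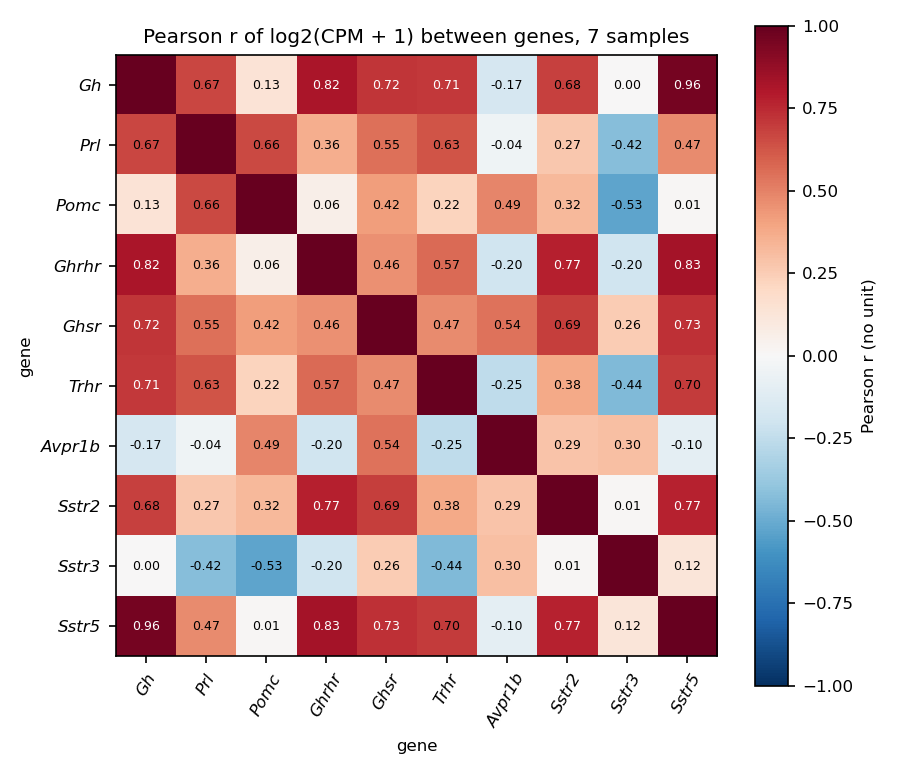
Pearson r of log2(CPM + 1) between the 10 members over the 7 samples without male 1, on a colour scale from -1 (blue) to 1 (red). *Gh*, *Ghrhr*, *Ghsr*, *Trhr*, *Sstr2* and *Sstr5* have positive values with each other, from 0.38 to 0.96 (within the sexes, not drawn, *Trhr* and *Sstr2* turn to -0.34), and *Sstr3* has values from -0.53 to 0.30 with every other member.

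Each receptor was also ranked among the 20151 other genes tested by its r with a hormone. With *Gh*, *Sstr5* ranked 21st, with 0.0993% of genes above it, and *Ghrhr* ranked 718th, with 3.56% above it. *Ghsr* had 7.86% of genes above it, *Sstr2* 9.75% and *Sstr3* 49.3%. On deviations from the mean of each sex these shares were 0.328% for *Sstr5*, 7.63% for *Ghrhr*, 13.0% for *Ghsr*, 20.6% for *Sstr2* and 40.2% for *Sstr3*. *Trhr* with *Prl* had 4.73% of genes above it, and *Avpr1b* with *Pomc* had 9.54% (3.77% and 14.1% within the sexes). The genes most like *Gh* across the 7 samples, among 10445 genes with a mean of at least 10 CPM, were *Galnt16* (r = 0.99), *Igsf1* (0.99), *Gabrb1* (0.99), *Rxrg* (0.98) and *Slc35e4* (0.98). Those most like *Prl* were *Nudt2* (0.98), *Aldoa* (0.97), *Naxe* (0.97), *Nfx1* (0.95) and *Ddx56* (0.94), of which *Nfx1* had r = -0.20 once male 1 was added. Those most like *Pomc* were *Shprh* (0.98), *Esm1* (0.97), *Fancl* (0.95), *Rbm3* (0.94) and *Loxl1* (0.94).

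Other markers of the same lineages gave further values. *Pou1f1*, the transcription factor of somatotropes, lactotropes and thyrotropes, was 16.4, 33.6, 35.5 and 21.4 CPM in females 1 to 4, and 111, 62.2 and 143 CPM in males 2 to 4, with 26.0 CPM in male 1. Its log2 fold change was 1.96 (SE 0.37, edgeR adjusted p = 0.0494), and it did not pass once any one of the 7 samples was left out (adjusted p from 0.0747 to 0.147) or once male 1 was added (0.278). It was the 1 gene called by edgeR in each of the lists of 5 somatotrope, 4 lactotrope and 4 thyrotrope markers, all of which hold it. Over all genes, edgeR called 0.983% with the males higher and 1.35% with the females higher. An unadjusted edgeR p under 0.05, in either direction, was reached by 1 somatotrope, 2 lactotrope and 4 thyrotrope markers, against 19.9% of all genes. DESeq2 called 1, 2 and 3 genes of these lists, against 11.6% of all genes. Among 5 corticotrope and 4 melanotrope markers, 0 were called by edgeR or DESeq2. An unadjusted p under 0.05 was reached by 0 of them in either, against 19.9% of all genes with edgeR and 22.9% with DESeq2. *Tshb*, the thyrotropin subunit, was between 20.9 and 83.2 CPM in females and between 234 and 335 CPM in males 2 to 4 (log2 fold change 2.35, SE 0.46, edgeR adjusted p = 0.0525). *Agtr1a*, an angiotensin receptor of lactotropes, was between 1.65 and 6.34 CPM in females and between 13.3 and 23.6 CPM in males 2 to 4 (2.42, SE 0.48, edgeR adjusted p = 0.0529). *Dio2*, a deiodinase of thyrotropes, lay the other way, with means of 97.8 ± 31.6 CPM in females (SD, n = 4) and 42.7 ± 6.32 CPM in males 2 to 4 (SD, n = 3) and no overlap (log2 fold change -1.22, SE 0.28, edgeR adjusted p = 0.0721). DESeq2 called all 3, where it called 11.6% of all genes tested. Male 1 was inside the female range for *Tshb* (83.2 CPM) and *Agtr1a* (4.08 CPM) and below all other samples for *Dio2* (21.1 CPM), and with male 1 added the edgeR adjusted p was 0.185 for *Tshb* and 0.247 for *Agtr1a*.

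Not all markers followed the hormone of their lineage. *Dlk1*, carried by somatotropes, was 15.3 CPM in female 4 and 6.28 CPM in male 1 but between 76.5 and 519 CPM in the other samples, whereas *Gh* in female 4 was 51911 CPM. By contrast, *Pappa2*, also of the somatotrope list, was 9.81, 41.6, 35.0 and 36.1 CPM in females 1 to 4. In males 2 to 4 *Pappa2* was 25.8, 32.0 and 54.5 CPM, so that it was lowest in female 1 and highest in male 4, as *Gh* was. *Drd2*, the dopamine receptor of lactotropes, was 7.93 CPM in female 3 and between 21.5 and 36.9 CPM elsewhere. *Tbx19*, the transcription factor of *Pomc* cells, was between 24.4 and 28.6 CPM in females and between 27.0 and 54.6 CPM in males 2 to 4, highest in male 4 as *Pomc* was (log2 fold change 0.55, edgeR adjusted p = 0.266). *Crhr1*, the receptor of corticotropin-releasing hormone, was between 6.06 and 13.0 CPM in females and between 5.69 and 8.44 CPM in males 2 to 4 (log2 fold change -0.66, edgeR adjusted p = 0.293). *Gpc5*, also of the corticotrope list, was 2.14, 3.63, 6.15 and 4.98 CPM in females 1 to 4, and 6.45, 4.64 and 13.3 CPM in males 2 to 4. It was highest in male 4 as *Pomc* was, but lowest in female 1, where *Pomc* was not. *Pax7*, which marks melanotropes, was 16.1, 19.3, 3.73 and 6.49 CPM in females 1 to 4, and 4.63, 1.87 and 9.22 CPM in males 2 to 4. *Oacyl*, another melanotrope gene, was 44.9 and 34.5 CPM in females 1 and 2, 11.2 and 14.4 CPM in females 3 and 4, and 15.3, 13.8 and 40.2 CPM in males 2 to 4. Male 1 was at 9.39 CPM for *Pax7* and 40.4 CPM for *Oacyl*. Females 1 and 2, with the most *Pomc* of the females, and male 4, with the most among males 2 to 4, were also highest for *Pax7* and *Oacyl* within those groups. *Pcsk2*, a prohormone convertase and the other gene of the melanotrope list, ordered the females differently: it was 217, 166, 195 and 259 CPM in females 1 to 4, lowest in female 2, and 220, 235 and 254 CPM in males 2 to 4. The part of melanotropes in the *Pomc* values was not tested.

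The ligands of these receptors were near or at the floor. *Ghrh*, *Sst*, *Trh* and the adrenocorticotropin receptor *Mc2r* had 0 counts in all 8 samples, and *Cort*, *Ghrl*, *Avp* and *Crh* had at most 17 counts in any sample. Of 15 further ligand and receptor genes of the same axes, 3 passed the filter on low counts, and none of these was called (0 of 3 by edgeR, with 1 at an unadjusted p under 0.05, which 19.9% of all genes reached). That gene was *Sstr1*, between 2.47 and 4.41 CPM in females and between 1.35 and 2.66 CPM in males 2 to 4 (log2 fold change -0.96, SE 0.37, adjusted p = 0.211), and DESeq2 also called 0 of 3, with 1 at an unadjusted p under 0.05. The hormone receptors *Ghr* and *Prlr* were the others, and *Prlr* shares its locus name with 2 further entries. *Sstr4*, *Avpr1a*, *Avpr2* and *Oxtr* were at 0 counts in at least 3 samples each.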

How the data were processed

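The deposited table holds unnormalized counts per gene for each of the 8 sorted samples. Per the labels and the methods, the authors trimmed reads with cutadapt, mapped them to mm10 (GRCm38) with STAR and counted them per gene with featureCounts, from libraries made with a kit for low RNA input. The annotation is not given in the sources used here, and 28933 of the 55523 entries carry MSTRG locus names of assembled transcripts. Of the entries, 23362 had 0 counts in all samples. The depth was between 18774578 and 31302588 counts. Counting was with default parameters, under which featureCounts does not use strand, so reads of a gene and of an antisense partner cannot be told apart.

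Males 2 to 4 were compared with females 1 to 4 by the quasi-likelihood test of edgeR 4.0.16 (R 4.3.3) after filterByExpr, with TMM factors, Benjamini-Hochberg adjustment over all 20152 genes tested and a threshold of 0.05. CPM were scaled by TMM over the 8 samples. Permutation tests and correlations used log2(CPM + 1), in scipy 1.17.1 and Python 3.11.15. On simulated counts for this comparison, with 194 changed genes among 19259, the test recovered 71.1% of log2 changes of 3, and 6.76% of its calls were false. Smaller changes were not simulated, and the largest among the members was 1.82 (*Sstr5*), so the recovery at their size is not known. Lengths came from the exons of GENCODE on GRCm38, which may differ from the models the authors counted, and upstream sequences from RefSeq (GRCm38.p6), where 5 of the 10 members were matched.

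The genes named are the members, the genes of 13 lists (markers of somatotropes, lactotropes, thyrotropes, corticotropes, melanotropes, gonadotropes, stem, endothelial, stromal, immune and erythroid cells and pituicytes, and further ligands and receptors), and the 5 genes with the highest r with each hormone, without members and without Gm or Rik symbols. The members, lists and tests were chosen with earlier results of these data known. The alternatives were DESeq2 1.42.0, upper-quartile factors, library size alone, TMM without the hormone counts, other filters, all 8 samples, a replicate block, robust dispersion, counts summed over a locus, a pseudocount of 0.25 CPM, and leaving out each replicate. The fits of *Pou1f1*, *Fshb*, *Sox9*, *Tshb* and *Agtr1a* under these settings, and correlations within the sexes over all 8 samples, were added after seeing the data.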

Additional observations from a re-analysis of the deposited data

Results flagged for a closer look

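In each sex, the highest or lowest of the 4 samples was compared with the range of the group (Dixon's criterion at the 95% level), for the 10 members and for the summed level of each marker list. Of 46 groups 5 stood out, and chance gives about 1 in 20, or 2.3. *Prl* was 18234 CPM in female 2 against 4677 to 6918 CPM in the other females. The summed lactotrope markers stood out in the same sample, at 18294 CPM, almost all of it *Prl*. *Sstr3* was 101.6 CPM in female 4 against 34.3 to 43.8 CPM in the other females. The summed stromal markers were 162.6 CPM in female 1, and between 111.8 and 117.1 CPM in the other females. The summed further ligand and receptor genes were 85.1 CPM in female 1 and between 21.7 and 28.3 CPM in the others, of which *Prlr* was 53.5 CPM in female 1.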

How the results depend on the processing

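The count of members called between the sexes was 0 under the main settings and under each of 17 alternatives. With a replicate block it was also 0, with 0 genes called over the whole table against 471 without the block. Whether same-numbered samples of the sexes were prepared together is not given in the sources used here (correlations of their deviations -0.02, -0.0082 and -0.00023). Over all genes DESeq2 called 2329, library size alone 808, no filter 177, all 8 samples 67, and leaving out 1 sample 88 to 171; the cause was not tested. *Ghsr* was not tested when 10 counts were required in every sample. The log2 fold change turned for *Prl* with all 8 samples (-0.061) and for *Pomc* with library size alone (-0.11). With 1 sample left out it ranged from -0.080 to 0.87 for *Prl*, -0.34 to 0.43 for *Pomc*, -0.31 to 0.16 for *Avpr1b* and -0.45 to 0.20 for *Sstr3*. *Gh* stayed between 0.71 and 1.36, *Ghrhr* between 0.65 and 2.36, *Ghsr* between 0.67 and 2.68, *Sstr2* between 0.27 and 0.88, *Trhr* between 1.36 and 2.05 and *Sstr5* between 1.40 and 2.17. The number of pairs past the threshold, 1 in the main setting, was 0 without the 2 samples farthest from the hormone median, 0 within the sexes, 2 within the sexes with all 8 samples, and between 0 and 1 with 1 sample left out. In the setting with 2, *Prl* and *Trhr* had r = 0.88. Without the 2 farthest samples r was -0.29 for *Pomc* and *Avpr1b*, -0.12 for *Gh* and *Ghsr* and -0.18 for *Gh* and *Sstr3*. *Gh* and *Sstr3* also turned with all 8 samples (-0.046), library size alone (-0.17), TMM without the hormone counts (-0.0031) and within the sexes with all 8 samples (-0.016), and ranged from -0.34 to 0.19 with 1 sample left out. *Ghrhr* and *Ghsr* ranged from -0.040 to 0.61. Depth limits the members with few counts, *Ghsr* (0 to 64), *Trhr* (12 to 135), *Sstr2* (42 to 122), *Avpr1b* (46 to 87) and *Sstr5* in female 1 (17).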

Other observations

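Among the gonadotrope markers, *Fshb*, the follicle-stimulating hormone subunit, was between 1398 and 5708 CPM in females and between 17066 and 30664 CPM in males 2 to 4, with 5790 CPM in male 1. It was the 1 of 6 called by edgeR (log2 fold change 3.13, SE 0.56, edgeR adjusted p = 0.0449), and of the 7 fits with 1 sample left out it passed only without female 4 (0.0325; the others from 0.0722 to 0.135) and did not pass once male 1 was added (0.143). The summed gonadotrope markers were between 21624 and 34848 CPM in females, between 67447 and 76526 CPM in males 2 to 4 and 28670 CPM in male 1. *Fshb* and *Cga* made up most of this sum (30056 and 27040 of 68361 CPM in male 2). Not all genes of the list lay in that direction. *Foxl2*, a transcription factor, was between 78.4 and 108 CPM in females and between 37.4 and 63.7 CPM in males 2 to 4 (log2 fold change -0.96, SE 0.23, edgeR adjusted p = 0.0778), and *Nr5a1* had a log2 fold change of -0.61 (SE 0.18, adjusted p = 0.130). Of the 6 genes, 5 had an unadjusted edgeR p under 0.05, against 19.9% of all genes tested, and DESeq2 called 2, *Fshb* and *Foxl2*, against 11.6%. Of the 4 stem cell markers, *Sox9*, a transcription factor of pituitary stem cells, fell by 1.02 on the log2 scale in males (SE 0.18, edgeR adjusted p = 0.0417), and it did not pass once any one of the 7 samples was left out (0.0580 to 0.135) or once male 1 was added (-0.69, adjusted p = 0.438), whose *Sox9* level of 238 CPM lay inside the female range of 195 to 304 CPM. DESeq2 called 2 of the 4, *Sox2* and *Sox9*, against 11.6% of all genes tested. Over all genes, edgeR called 0.983% with the males higher and 1.35% with the females higher.

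Lists of non-endocrine cells were also read. The summed endothelial markers were between 408 and 529 CPM in females, between 413 and 550 CPM in males 2 to 4 and 693 CPM in male 1. The summed immune markers were between 41.2 and 73.7 CPM in females and between 42.5 and 117.0 CPM in males 2 to 4. The summed erythroid markers were between 184 and 579 CPM in females and between 80.6 and 224 CPM in males 2 to 4, and the summed stromal markers were between 100.9 and 110.0 CPM in males 2 to 4. *Rax* and *Col25a1*, read as pituicyte markers, summed to between 6.57 and 15.7 CPM over the 7 samples. Of these lists edgeR called 0 of 5 endothelial, 0 of 5 stromal, 0 of 4 immune, 0 of 5 erythroid and 0 of 2 pituicyte markers, with 1, 2, 0, 1 and 1 at an unadjusted p under 0.05, 5 of the 21 genes in all, close to the 19.9% of all genes. DESeq2 called 1 stromal gene, *Col1a1*, and 1 erythroid gene, *Hbb-bs*, and 0 of the other lists, where it called 11.6% of all genes.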
